A study of Homo sapiens with 6 samples.

Results

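Aminoacyl-tRNA synthetases are the enzymes that load each amino acid onto its transfer RNA. Human cells keep separate enzymes for the cytosol and for mitochondria, nearly all encoded by nuclear genes of their own, and the mitochondrial set serves the translation of respiratory chain subunits encoded by mitochondrial DNA. The enzymes fall into classes I and II by the fold of the catalytic domain, and several cytosolic ones sit in a multisynthetase complex. ATF4, a transcription factor that acts when amino acids are scarce, is known to induce many cytosolic synthetase genes. The 35 genes described here were taken by symbol from a list of 19 cytosolic and 16 mitochondrial synthetases, out of 63677 genes in the deposited count table. All 35 were found, and all 35 were among the 22331 genes that passed the filter on low counts.

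The cells were HEK293, a human embryonic kidney line, lysed 48 hours after transfection with siRNA by Lipofectamine RNAiMAX. Control cells received the siRNA that the labels call NTC (no template control), siRAB3IP cells an siRNA against circRAB3IP, and siCAMSAP1 cells an siRNA against circCAMSAP1. The targets are circular RNAs made from the RAB3IP and CAMSAP1 genes. Poly(A) RNA was sequenced in 6 libraries (2 in each group), and each held between 37379217 and 39637733 gene-assigned fragments. Separate cultures are not named in the labels. The p-values here therefore reflect spread from library to library, which could be technical.

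The grouping used throughout follows the column names of the authors' deposited comparison tables. Each normalized column there is a multiple of 1 count column, and together these columns cover all 6 libraries. The titles of the sample records put 4 of the 6 libraries in other groups, while their genotype entries exchange the names of the circular RNAs. The title group control holds control replicate 1 and siRAB3IP replicate 1 of the grouping used here. The title group siRAB3IP holds siCAMSAP1 replicate 1 and control replicate 2, and siCAMSAP1 holds siRAB3IP replicate 2 and siCAMSAP1 replicate 2. With the title grouping, the test described below (edgeR) called 0 of 22331 genes in every comparison, and 330, 437 and 456 genes had an unadjusted p under 0.05. Every synthetase value called below had the opposite sign. Since the title groups mix libraries of the groups used here, that sign is no separate check on the values. Which naming is right is not given in the sources used here. Linear RAB3IP and CAMSAP1 mRNA ranged from 56.3 to 68.1 and from 136 to 156 CPM (counts scaled to library size). Poly(A) RNA does not read the circular forms, so these values check neither the knockdown nor the labels. Of 7 HEK293 markers 5 lay above 1 CPM (PAX2 and NEFM did not), and 0 of 4 blood and 0 of 3 hepatocyte markers did. Of 4 fibroblast markers 3 (DCN did not) and of 3 endothelial markers 1 also lay above 1 CPM.

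Per exon length, cytosolic synthetase mRNAs were more abundant than mitochondrial ones. In control libraries the median level was 31.6 FPKM (CPM per kilobase of merged exon) over the 19 cytosolic genes and 9.47 FPKM over the 16 mitochondrial genes. IARS1, the cytosolic isoleucine enzyme, had the highest level, 81.0 ± 0.514 FPKM (SD, n = 2), followed by the threonine enzyme TARS1 at 75.3 ± 4.33 and the asparagine enzyme NARS1 at 72.4 ± 1.84. TARS1 and NARS1 were within their spread of each other. CARS1, for cysteine, was the lowest cytosolic gene at 5.48 ± 0.398 FPKM. That rank rests on its merged exon length of 10037 bases. Its mean of 55.0 CPM in control was close to the 54.9 of FARSB, which has 3429 bases and 16.0 FPKM. IARS2, the mitochondrial isoleucine enzyme, stood apart from its set at 54.0 ± 1.74 FPKM, followed by YARS2 (tyrosine) at 19.6 ± 1.19 and RARS2 (arginine) at 19.5 ± 0.077, which were within their spread of each other. SARS2, for serine, was lowest at 1.16 ± 0.165 FPKM, but 62.5% of its exon bases are shared with other genes, so its level is uncertain.

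**Figure D1:**
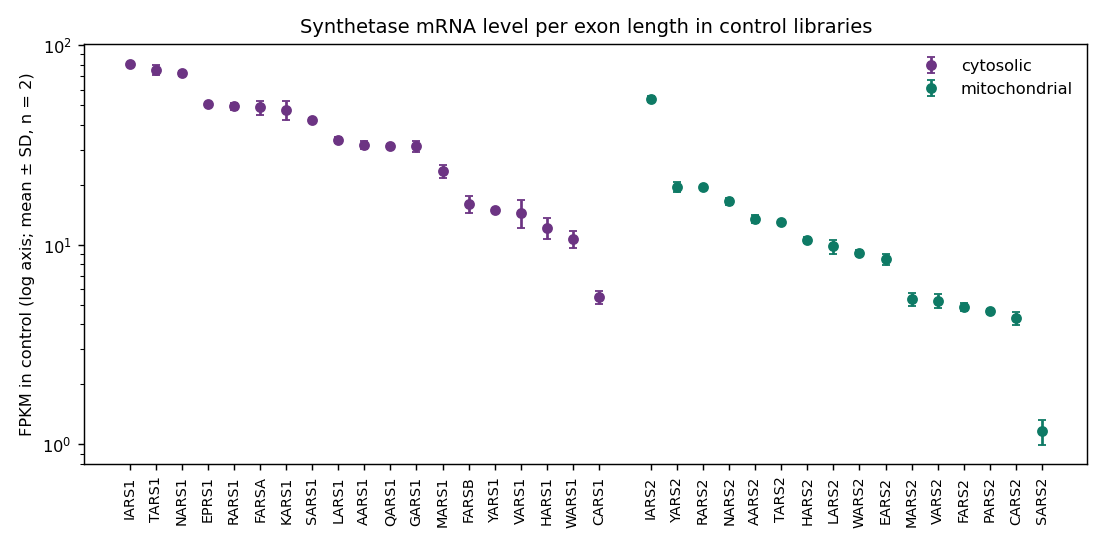
Level of each synthetase mRNA in control libraries, in FPKM on a log axis, as mean ± SD of 2 libraries, with cytosolic genes on the left and mitochondrial genes on the right, each in falling order. The cytosolic genes run from 81.0 (IARS1) to 5.48 FPKM (CARS1) and the mitochondrial ones from 54.0 (IARS2) to 1.16 FPKM (SARS2).

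In siRAB3IP against control, the calls among cytosolic synthetases were rises and those among mitochondrial synthetases were falls. Of 19 cytosolic synthetases 4 rose and 0 fell, and of 16 mitochondrial ones 3 fell and 0 rose, by the quasi-likelihood (QL) test of edgeR at a Benjamini-Hochberg (BH) adjusted p under 0.05 over all genes. The cytosolic rises were AARS1, GARS1, NARS1 and SARS1, which charge alanine, glycine, asparagine and serine. The mitochondrial falls were IARS2, LARS2 and VARS2, which charge the branched-chain amino acids isoleucine, leucine and valine. Over all 22331 genes 6.58% were called higher and 5.38% lower. The cytosolic share called higher was 21.1%, and the mitochondrial share called lower was 18.8%. With only genes at a mean of at least 5 CPM tested, 1201 of 11783 genes were called higher and 1187 lower. Both shares are larger than over all genes. That setting called 4 cytosolic synthetases higher and 4 mitochondrial ones lower. The median log2 fold change was 0.0955 over the cytosolic genes, -0.00428 over the mitochondrial genes and -0.0114 over all genes tested. Both siRAB3IP libraries lay above both control libraries for 11 cytosolic and 4 mitochondrial genes, and below them for 0 and 5, against backgrounds of 25.9% and 27.8% of all genes.

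**Figure D2:**
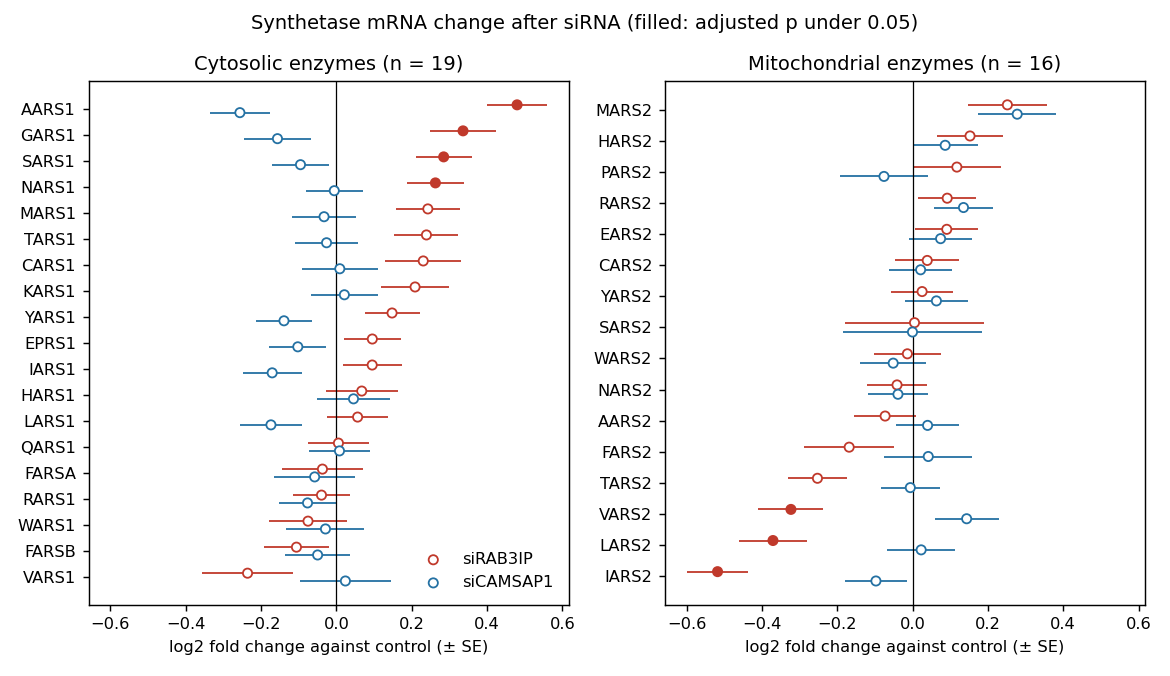
Log2 fold change (± SE) of each synthetase against control in siRAB3IP (red) and siCAMSAP1 (blue), cytosolic genes on the left and mitochondrial genes on the right, ordered by the siRAB3IP value. Filled points passed an adjusted p of 0.05: 4 cytosolic rises and 3 mitochondrial falls in siRAB3IP, and 0 genes in siCAMSAP1.

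AARS1 had the largest rise of the cytosolic set. It measured 137.5 and 147 CPM in control, 190 and 207 in siRAB3IP, and 117 and 121 in siCAMSAP1. The groups did not overlap, with siRAB3IP highest and siCAMSAP1 lowest. Its log2 fold change was 0.48 ± 0.08 (SE) in siRAB3IP against control (edgeR QL, BH-adjusted p = 0.0018). AARS1 lies at hg19 chromosome 16, 70286198 to 70323446, and shares no exon base with another gene. Its call held without any 1 of the 6 libraries.

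GARS1, which makes both the cytosolic and the mitochondrial glycine enzyme from 1 gene (chromosome 7, 30634297 to 30673649), measured 135 and 124 CPM in control, 174.5 and 152 in siRAB3IP, and 120 and 112 in siCAMSAP1. The lower siRAB3IP library was still above both control libraries. The log2 fold change was 0.34 ± 0.09 (edgeR QL, BH-adjusted p = 0.0241). Gene counts do not separate the products for the 2 compartments. The call ended without siRAB3IP replicate 1 (adjusted p = 0.241) or control replicate 2 (adjusted p = 0.115).

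SARS1, the serine enzyme (chromosome 1, 109756540 to 109780791), measured 164.5 and 159 CPM in control, 202 and 192 in siRAB3IP, and 151 and 152 in siCAMSAP1. NARS1, the asparagine enzyme (chromosome 18, 55267888 to 55289445), measured 301 and 291 CPM in control, 359 and 351 in siRAB3IP, and 290 and 299.8 in siCAMSAP1. For both genes the siRAB3IP pair stood above the other 4 libraries. The log2 fold changes against control were 0.28 ± 0.07 for SARS1 and 0.26 ± 0.08 for NARS1, and their BH-adjusted p values were 0.0244 and 0.0368 (edgeR QL). The SARS1 call ended without control replicate 2 (0.107), siRAB3IP replicate 1 (0.177) or siRAB3IP replicate 2 (0.0831), where each value is an adjusted p. That of NARS1 ended without any 1 library, with adjusted p from 0.0556 to 0.194, and also with all 4 libraries when only the control and siRAB3IP groups were fitted (0.0568).

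The other 15 cytosolic genes had log2 fold changes from -0.24 (VARS1) to 0.24 (MARS1), with a lowest adjusted p of 0.0828. MARS1 (0.24 ± 0.09), TARS1 (0.24 ± 0.08), CARS1 (0.23 ± 0.10) and KARS1 (0.21 ± 0.09), for methionine, threonine, cysteine and lysine (KARS1, like GARS1, serves both compartments), had both siRAB3IP libraries above both control libraries and missed the threshold. The authors' deposited table for siRAB3IP, which holds 2192 genes past their own threshold, lists AARS1, GARS1, NARS1 and SARS1, and also MARS1 at a log2 fold change of 0.25 and TARS1 at 0.24. Its lower members are IARS2 and LARS2, and VARS2 is not among its rows. MARS1 shares 12.4% of its exon bases with ARHGAP9 and DDIT3 on the other strand, and DDIT3 was itself called higher. Counting had no strand setting, so their reads cannot be told apart there. EPRS1, a fusion of the glutamate and proline enzymes, was at 0.10 ± 0.08, and FARSA and FARSB, the subunits of the phenylalanine enzyme, were at -0.04 ± 0.11 and -0.11 ± 0.09.

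The 4 called cytosolic genes shared features that were looked at after their values were seen, so the following counts carry no test. All 4 are class II enzymes, of 9 in the cytosolic list, while 0 of 9 cytosolic class I enzymes were called. All 4 also act outside the multisynthetase complex. Of 12 listed cytosolic genes outside the complex 4 rose (median log2 fold change 0.19), and of 7 inside it 0 were called (median 0.0951). Both splits were less clear in siRAB3IP against siCAMSAP1. There 2 of 9 class I and 4 of 9 class II genes were called (medians 0.221 and 0.265). Inside the complex 1 of 7 genes was called, and outside it 5 of 12 (medians 0.198 and 0.243). The scaffold proteins that hold the complex together are AIMP1, AIMP2 and EEF1E1. In siRAB3IP against control they had log2 fold changes of 0.24, 0.06 and 0.20, and 0 of the 3 passed the test. Each of the 3 shares over 10% of its exon bases with a neighbour, so these values are uncertain.

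IARS2 had the largest change against control of the 35 genes in siRAB3IP. It measured 229.8 and 219.6 CPM in control, 167 and 147 in siRAB3IP, and 210.3 and 209.7 in siCAMSAP1. Both siRAB3IP libraries were below the other 4. The log2 fold change was -0.52 ± 0.08, or 0.699-fold (edgeR QL, BH-adjusted p = 0.00143). IARS2 lies on chromosome 1 at 220267444 to 220321380, near the cytosolic gene EPRS1 (220141943 to 220220000), and shares no exon base with another gene. The call held without any 1 of the 6 libraries and against a minimum fold of 1.2.

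LARS2, the mitochondrial leucine enzyme (chromosome 3, 45429998 to 45590913), measured 56.1 and 49.99 CPM in control, 43.0 and 39.0 in siRAB3IP, and 56.1 and 51.6 in siCAMSAP1. The control and siCAMSAP1 libraries overlapped, and both siRAB3IP libraries lay below them. The log2 fold change was -0.37 ± 0.09 (edgeR QL, BH-adjusted p = 0.0185). The call ended without control replicate 1 (adjusted p = 0.0973) or siRAB3IP replicate 2 (0.17).

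VARS2, the mitochondrial valine enzyme (chromosome 6, 30876019 to 30894236), measured 41.8 and 46.9 CPM in control, 35.1 and 35.8 in siRAB3IP, and 48.97 and 49.1 in siCAMSAP1. Its 3 groups did not overlap, with siRAB3IP lowest. The log2 fold change was -0.32 ± 0.09 (edgeR QL, BH-adjusted p = 0.0267). VARS2 shares 22% of its exon bases with GTF2H4 on the same strand, and those 1858 bases are most of the 2353 exon bases of GTF2H4. The low count of GTF2H4 (0.305 to 0.586 CPM) does not show how many reads come from each gene. The elongation factor gene EEF1G, with 99.2% of its exon bases shared, likewise had only 2 and 6 fragments in control. Fragments in shared bases may thus have gone uncounted, which was not tested, and the VARS2 value is uncertain. The call ended without control replicate 2 (adjusted p = 0.21), siRAB3IP replicate 1 (0.144) or siRAB3IP replicate 2 (0.122).

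The other 13 mitochondrial genes ran from -0.25 (TARS2, threonine) to 0.25 (MARS2, methionine). TARS2 measured 52.8 and 52.4 CPM in control and 44.8 and 43.5 in siRAB3IP, and its adjusted p of 0.0517 (edgeR QL, BH) was just outside the threshold. MARS2 measured 17.0 and 15.4 CPM in control and 19.6 and 18.9 in siRAB3IP. Of the 3 mitochondrial branched-chain enzymes, a grouping seen only after the values, 3 fell, with a median of -0.37, and of the other 13 mitochondrial genes 0 were called, with a median of 0.0253. The 3 cytosolic branched-chain enzymes had log2 fold changes of 0.10 ± 0.08 (IARS1), 0.06 ± 0.08 (LARS1) and -0.24 ± 0.12 (VARS1), and 0 of them passed the test.

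**Figure D3:**
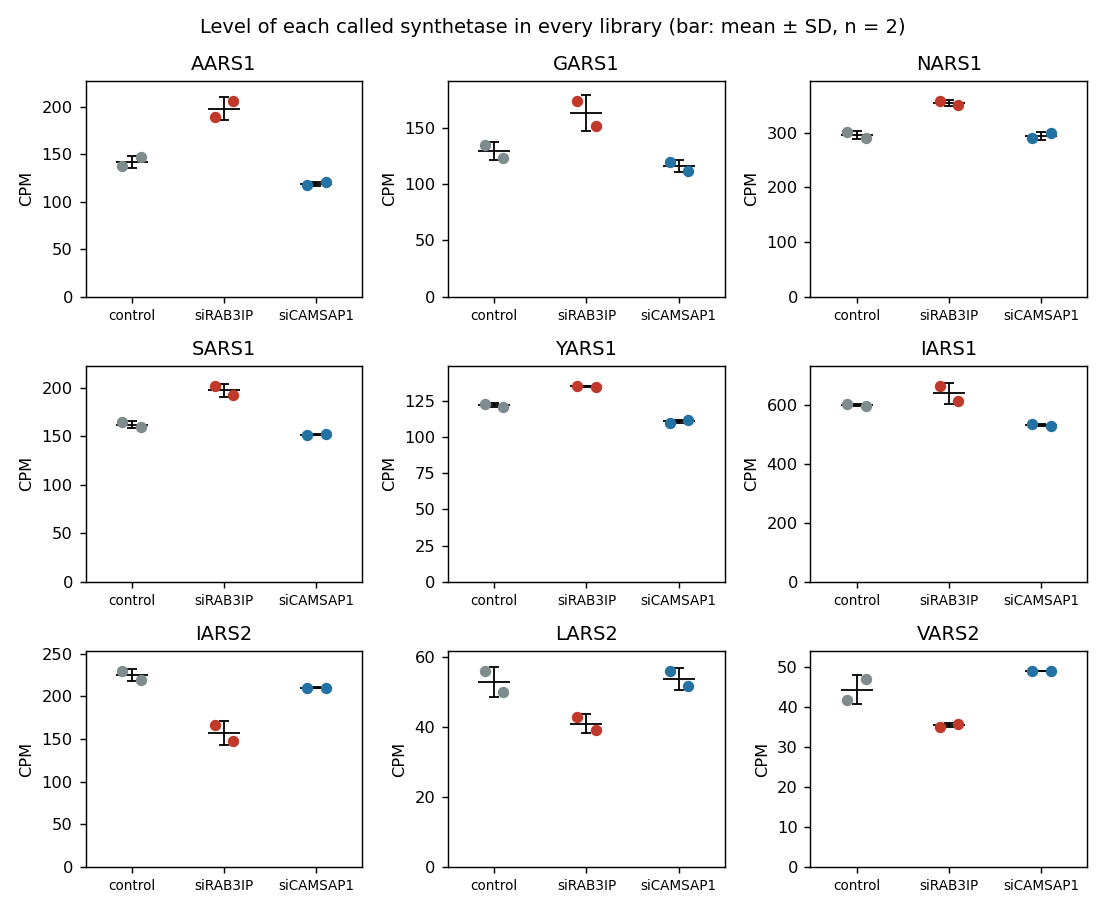
CPM of the 9 synthetases called in at least 1 comparison, with each of the 6 libraries as a point and the mean ± SD (n = 2) as a bar, on axes that start at 0. The siRAB3IP libraries are the highest for AARS1 (190 and 207 CPM) and the other 5 cytosolic genes and the lowest for IARS2 (167 and 147 CPM), LARS2 and VARS2.

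The number of calls depended on single libraries. For siRAB3IP against control it ranged from 1 to 5 cytosolic and from 1 to 3 mitochondrial genes when 1 library was left out. The cytosolic count was 1 without siRAB3IP replicate 1, 2 without siRAB3IP replicate 2 and 2 without control replicate 2. Without control replicate 2 those 2 were AARS1 higher and VARS1 lower. The mitochondrial count was 1, IARS2, without siRAB3IP replicate 2. Against a minimum fold of 1.2, 0 cytosolic genes and 1 mitochondrial gene (IARS2) passed. With the replicate number as a block, 8 cytosolic genes were called higher and 1 lower, and 1 mitochondrial gene higher and 4 lower. That setting called 3034 of all 22331 genes higher and 2556 lower.

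In siCAMSAP1 against control, 0 of 19 cytosolic and 0 of 16 mitochondrial synthetases passed the edgeR QL test, against 1.06% of all genes tested. DESeq2 also called 0 members, and 3 of the 35 had an unadjusted p under 0.05. With the replicate number as a block, 3 cytosolic genes (AARS1, IARS1 and LARS1) were called lower and 1 mitochondrial gene (MARS2) higher. That setting called 750 of all 22331 genes lower and 893 higher. The control libraries are the same ones as in the siRAB3IP comparison. The cytosolic genes had a median log2 fold change of -0.0497, with 14 of 19 below 0, and the mitochondrial genes a median of 0.0313, with 10 of 16 above 0. The median over all genes was 0.000837. Both siCAMSAP1 libraries lay below both control libraries for 8 cytosolic genes and above them for 0, against 20.9% and 20.6% of all genes.

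The members with an unadjusted p under 0.05 in siCAMSAP1 were AARS1, IARS1 and MARS2. AARS1 was at -0.26 ± 0.08, with a BH-adjusted p of 0.18 (edgeR QL). In the authors' deposited table for siCAMSAP1 AARS1 is the only member among 474 genes, with a log2 fold change of -0.25 and an adjusted p of 0.0417. IARS1 was at -0.17 ± 0.08 and MARS2 at 0.28 ± 0.10, and their BH-adjusted p values were 0.404 and 0.286 (edgeR QL). The 3 mitochondrial genes that fell in siRAB3IP had siCAMSAP1 values of -0.10 ± 0.08 (IARS2), 0.02 ± 0.09 (LARS2) and 0.14 ± 0.09 (VARS2).

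Set directly against siCAMSAP1, the siRAB3IP libraries had 6 of 19 cytosolic synthetases higher and 3 of 16 mitochondrial ones lower by the edgeR QL test. Over all genes 5.14% were called higher and 4.16% lower. With only genes at a mean of at least 5 CPM tested, 977 of 11783 genes were called higher and 885 lower. That setting called 8 cytosolic synthetases higher and 4 mitochondrial ones lower. Libraries of the knockdowns did not overlap for 12 cytosolic and 1 mitochondrial gene higher in siRAB3IP and for 2 and 8 lower, against 25.8% and 26.4% of all genes. AARS1 (0.74 ± 0.08), GARS1 (0.49 ± 0.09), SARS1 (0.38 ± 0.07) and NARS1 (0.27 ± 0.08) were again higher, with BH-adjusted p values of 0.000156, 0.00359, 0.00627 and 0.0392 (edgeR QL). VARS2 (-0.47 ± 0.09), IARS2 (-0.42 ± 0.08) and LARS2 (-0.39 ± 0.09) were again lower, with BH-adjusted p values of 0.00449, 0.00603 and 0.0158 (edgeR QL). This test bears on the difference between the knockdowns, which the separate comparisons with control do not. The 13 cytosolic genes that were not called ran from -0.26 (VARS1) to 0.28 (MARS1), and the 13 mitochondrial ones from -0.25 (TARS2) to 0.19 (PARS2).

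YARS1 and IARS1 were called between the knockdowns and not against control. YARS1, the tyrosine enzyme (chromosome 1, 33240840 to 33283754), measured 123 and 121 CPM in control, 136 and 135 in siRAB3IP, and 110.2 and 112 in siCAMSAP1. Control lay between the knockdowns without overlap. The difference was 0.29 ± 0.07 (edgeR QL, BH-adjusted p = 0.0256), made up of 0.15 ± 0.07 in siRAB3IP and -0.14 ± 0.07 in siCAMSAP1 against control. IARS1 (chromosome 9, 94972489 to 95056038) measured 602 and 597 CPM in control, 665 and 615 in siRAB3IP, and 536 and 529 in siCAMSAP1. Its difference was 0.27 ± 0.08 (edgeR QL, BH-adjusted p = 0.0496), and without the robust prior the adjusted p was 0.0534. Both calls, and that of NARS1, ended without any 1 of the 4 knockdown libraries, and the SARS1 call ended without siRAB3IP replicate 1 (0.0643). Of the mitochondrial calls, IARS2 and LARS2 ended without siRAB3IP replicate 2 (0.105 and 0.171) and LARS2 also without siCAMSAP1 replicate 1 (0.134). Leaving out 1 library gave 2 to 8 cytosolic and 1 to 3 mitochondrial calls. The cytosolic count was 2 without siRAB3IP replicate 1 and 3 without siRAB3IP replicate 2, siCAMSAP1 replicate 1 or siCAMSAP1 replicate 2, and the mitochondrial count was 1 without siRAB3IP replicate 2. With the replicate number as a block, 12 cytosolic genes were called higher and 1 lower, and 4 mitochondrial genes lower. That setting called 2542 of all 22331 genes higher and 2287 lower.

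Summed over the members, the cytosolic synthetases took 3665 and 3490 CPM in control, 4061 and 3877 in siRAB3IP, and 3413 and 3353 in siCAMSAP1. The mitochondrial sums were 799 and 769 CPM in control, 707 and 688 in siRAB3IP, and 789.3 and 789.5 in siCAMSAP1. Thus the siRAB3IP libraries had the highest cytosolic and the lowest mitochondrial sums of the 6. The fall of IARS2, from 229.8 and 219.6 CPM in control to 167 and 147 in siRAB3IP, weighed most in the mitochondrial sums. The mitochondrial set as a whole had a median log2 fold change of -0.00428, with 8 genes above 0 and 8 below. In bulk RNA, fewer cells of a type and less RNA per cell cannot be told apart.

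The difference between the compartments was also read within each library. Each gene's log2 CPM was set against its control mean, and the mitochondrial median was subtracted from the cytosolic median. It was 0.0212 and -0.0212 in control, where the values mirror each other by construction, 0.164 and 0.117 in siRAB3IP, and -0.0562 and -0.151 in siCAMSAP1. The 3 groups did not overlap. From the fitted values the cytosolic minus mitochondrial median was 0.0998 in siRAB3IP against control, -0.081 in siCAMSAP1 against control and 0.254 between the knockdowns.

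Within an amino acid, 17 pairs of a cytosolic gene and its mitochondrial partner could be formed. In siRAB3IP against control the cytosolic partner had the higher log2 fold change in 12 of 17 pairs, in siCAMSAP1 against control in 2 of 17, and in siRAB3IP against siCAMSAP1 in 15 of 17. The pairs of EPRS1 (with EARS2 and PARS2) and of FARS2 (with FARSA and FARSB) share a gene, so the 17 are not independent. The log2 ratio of IARS1 to IARS2 was 1.39 and 1.44 in control, 1.996 and 2.06 in siRAB3IP, and 1.35 and 1.34 in siCAMSAP1. The ratio was higher in both siRAB3IP libraries than in the other 4. That of AARS1 to AARS2 was 1.195 and 1.39 in control, 1.85 and 1.84 in siRAB3IP, and 0.98 and 1.01 in siCAMSAP1, without overlap between groups.

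The partners of the called genes differed in which member moved. For alanine, asparagine, serine and tyrosine the mitochondrial partner was near control in siRAB3IP, with AARS2 at -0.07 ± 0.08, NARS2 at -0.04 ± 0.08, SARS2 at 0.01 ± 0.18 and YARS2 at 0.03 ± 0.08. The SARS2 value is uncertain, since 62.5% of its exon bases are shared. YARS1 itself, at 0.15 ± 0.07 against control, was called only between the knockdowns. For isoleucine and leucine the mitochondrial member was the one that fell, while IARS1 and LARS1 were at 0.10 and 0.06. For valine both partners had values below 0, and VARS1 overlapped between groups, with 98.4 and 77.9 CPM in control and 78.9 and 70.8 in siRAB3IP. The log2 ratio of VARS1 to VARS2 was 1.23 and 0.73 in control and 1.17 and 0.98 in siRAB3IP, so the groups overlapped for valine.

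HARS1 and HARS2, for histidine, are neighbours that start from a shared region on opposite strands of chromosome 5 (140052758 to 140071609 and 140071011 to 140078889). HARS1 measured 112 and 94.2 CPM in control and 115 and 101 in siRAB3IP, and HARS2 measured 35.2 and 37.2 in control and 39.8 and 40.8 in siRAB3IP. Their log2 fold changes were 0.07 ± 0.10 and 0.15 ± 0.09, and neither was called. The genes share exon bases (18.3% of HARS1 and 21.7% of HARS2 overlap a neighbour), so without strand their counts cannot be told apart in that stretch.

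**Figure D4:**
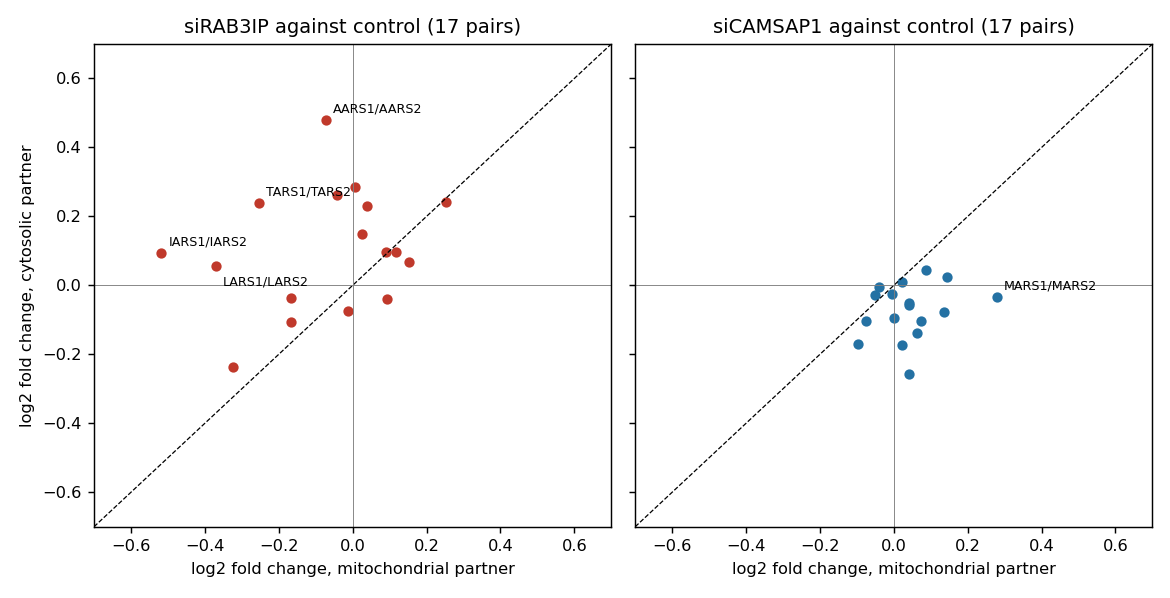
Log2 fold change against control of the cytosolic partner (vertical axis) and of the mitochondrial partner (horizontal axis) for 17 pairs, in siRAB3IP on the left and siCAMSAP1 on the right, with the dashed line where both are equal. In siRAB3IP 12 pairs lie above the line, and in siCAMSAP1 2 do.

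The promoters of the members were searched because several cytosolic genes rose together. RefSeq windows from 250 bases before to 50 bases after each start (GRCh38.p14) were found for 30 of the 35 members, 16 cytosolic and 14 mitochondrial. The C/EBP-ATF response element, bound by ATF4 with C/EBP proteins, was searched as TGATGNAA on both strands. It was present in 7 of 16 cytosolic promoters (43.8%), in 1 of 14 mitochondrial promoters (7.14%) and in 4.46% of the promoters of 27305 genes. The matches of the 3 called cytosolic genes that hold it, and of IARS1, MARS1, TARS1, CARS1 and YARS2, follow with 10 bases on each side, 5′ to 3′ on the strand of the gene, with the motif in capitals:
AARS1: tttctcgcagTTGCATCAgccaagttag
GARS1: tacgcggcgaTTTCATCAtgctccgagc
NARS1: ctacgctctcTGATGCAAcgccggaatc
IARS1: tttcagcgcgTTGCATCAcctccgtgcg
MARS1: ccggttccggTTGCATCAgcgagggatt
TARS1: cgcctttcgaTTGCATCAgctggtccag
CARS1: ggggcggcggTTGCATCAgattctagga
YARS2: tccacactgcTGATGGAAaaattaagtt

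In AARS1 the stretch lies at chr16:70289676-70289703 on the minus strand, with the motif's first base 187 bases before the start. In GARS1 it lies at chr7:30594835-30594862 on the plus strand, with the motif 33 bases before the start. In NARS1 it lies at chr18:57621805-57621832 on the minus strand, just inside the transcript. AARS1, GARS1, IARS1, MARS1, TARS1 and CARS1 carry the reverse complement on the gene's strand, and NARS1 and YARS2 the motif as written. The called gene SARS1 had no match in its window, and among the 7 cytosolic genes with one, 3 were called in siRAB3IP against control. A match is a description of letters and not evidence of binding.

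The other motifs searched were those of NRF1 and of ETS factors such as GABP (CCGGAAGT), known from nuclear genes for mitochondrial proteins, and the E-box (CACGTG). NRF1 letters were in 3 of 16 cytosolic and 3 of 14 mitochondrial promoters (18.8% and 21.4%), against 9.98% of all. ETS letters were in 5 and 3 (31.2% and 21.4%), against 4.95%, and the E-box in 1 and 3 (6.25% and 21.4%), against 8.77%. No match to 1 motif shared a base with a match to another. Of the mitochondrial genes that fell, IARS2 held an NRF1 match 16 bases before its start, at chr1:220094106-220094135 on the plus strand, shown with the motif in capitals:
IARS2: cgctcccggaGCGCGTGCGCcctcttactc

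LARS2 held no match to the 4 motifs, and VARS2 had no window in the table.

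Genes that supply the cytosolic enzymes with amino acids were also among the rises in siRAB3IP. The lists here and in the next paragraphs were chosen with earlier results of these data known. Their counts beside the share of all genes are therefore a description and no test of the lists. Over all genes 6.58% were called higher and 5.38% lower. Of 10 amino acid transporters tested 8 rose and 1 fell against control (edgeR QL), and the median log2 fold change was 0.60. The largest were the cystine-glutamate exchanger SLC7A11 (0.97 ± 0.12), the neutral amino acid transporter SLC1A4 (0.80 ± 0.08), the glycine transporter SLC6A9 (0.75 ± 0.21) and SLC43A1, a transporter of large neutral amino acids, which fell (-0.73 ± 0.15). Of 14 genes of amino acid synthesis 6 rose and 0 fell, with a median of 0.23. Asparagine synthetase ASNS (0.59 ± 0.08), which makes the substrate of NARS1, the proline enzyme PYCR1 (0.56 ± 0.09) and the folate enzyme MTHFD2 (0.53 ± 0.08) led them.

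Of 14 regulators of the amino acid stress response 6 rose and 1 fell in siRAB3IP, against 6.58% and 5.38% of all genes. Their median log2 fold change was 0.20. PPP1R15A, the stress-induced subunit of the eIF2α phosphatase, rose by 1.15 ± 0.11, the kinase EIF2AK3 (PERK) by 0.62 ± 0.09, and the transcription factor DDIT3 (CHOP) by 0.55 ± 0.13. EIF2AK4 (GCN2), the kinase activated by uncharged tRNA, fell from 110 and 114.5 CPM to 91.6 and 89.6 (-0.31 ± 0.07). ATF4 mRNA measured 316 and 300.3 CPM in control, 383 and 329 in siRAB3IP, and 265 and 255 in siCAMSAP1. Its log2 fold changes of 0.21 and -0.24 against control were not called, while siRAB3IP against siCAMSAP1 was called higher at 0.45 ± 0.09 (edgeR QL, BH-adjusted p = 0.00536). ATF4 is also controlled by translation, which these libraries do not read.

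Of 13 mitochondrial translation factors 1 fell and 0 rose in siRAB3IP, close to the 5.38% of all genes called lower. Their median log2 fold change was -0.0501, and of 11 genes of mitochondrial tRNA maturation 0 were called, with a median of 0.0491. The gene that fell was GATB, a subunit of the amidotransferase that makes mitochondrial glutaminyl-tRNA in place of a synthetase, with 28.2 and 26.4 CPM in control and 19.0 and 20.8 in siRAB3IP (-0.45 ± 0.10). GATB, like DTD2, MTHFD2, PYCR1, EIF2AK3 and DDIT3, shares over 10% of its exon bases with another gene, so these values are uncertain. Of 7 cytosolic elongation and release factors 2 rose, EEF1D (0.33 ± 0.08) and the translocase EEF2 (0.32 ± 0.09), against 6.58% of all genes. Of 3 proofreading genes, which remove wrongly attached amino acids, DTD2 fell (-0.53 ± 0.13), where 5.38% of all genes were called lower.

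WARS1, the tryptophan enzyme, is known to be induced by interferon-gamma. Of 7 other interferon-gamma-induced genes tested 5 rose in siRAB3IP, against 6.58% of all genes. In siCAMSAP1 3 rose, where 1.06% of all genes were called in either direction. Among them IRF1 (0.59 ± 0.10 and 0.67 ± 0.10) and TAP1 (0.65 ± 0.09 and 0.71 ± 0.09) were called in both. GBP1 and CXCL10, at 2.78 ± 0.43 and 2.47 ± 0.49 in siRAB3IP, had under 1 CPM in every control library. WARS1 itself measured 73.0 and 63.4 CPM in control, 68.6 and 60.8 in siRAB3IP, and 72.8 and 60.8 in siCAMSAP1. Its groups overlapped, and its log2 fold changes were -0.08 ± 0.10 and -0.03 ± 0.10.

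In siCAMSAP1, where 1.06% of all genes were called, 1 of 14 regulators and 1 of 14 synthesis genes were called beside the 3 of 7 interferon-gamma-induced genes. The regulator PPP1R15A rose (0.64 ± 0.11), the serine synthesis enzyme PSAT1, named after its value was seen, fell (-0.38 ± 0.08), and 0 of 10 transporters, 0 of 13 mitochondrial translation factors and 0 of 7 elongation factors were called. PSAT1 measured 79.5 and 76.2 CPM in control, 57.3 and 62.7 in siCAMSAP1, and 102 and 94.8 in siRAB3IP, where it rose. Between the knockdowns 8 of 10 transporters and 9 of 14 synthesis genes were higher in siRAB3IP, against 5.14% of all genes. ASNS was at 0.94 and SLC7A11 at 1.14.

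**Figure D5:**
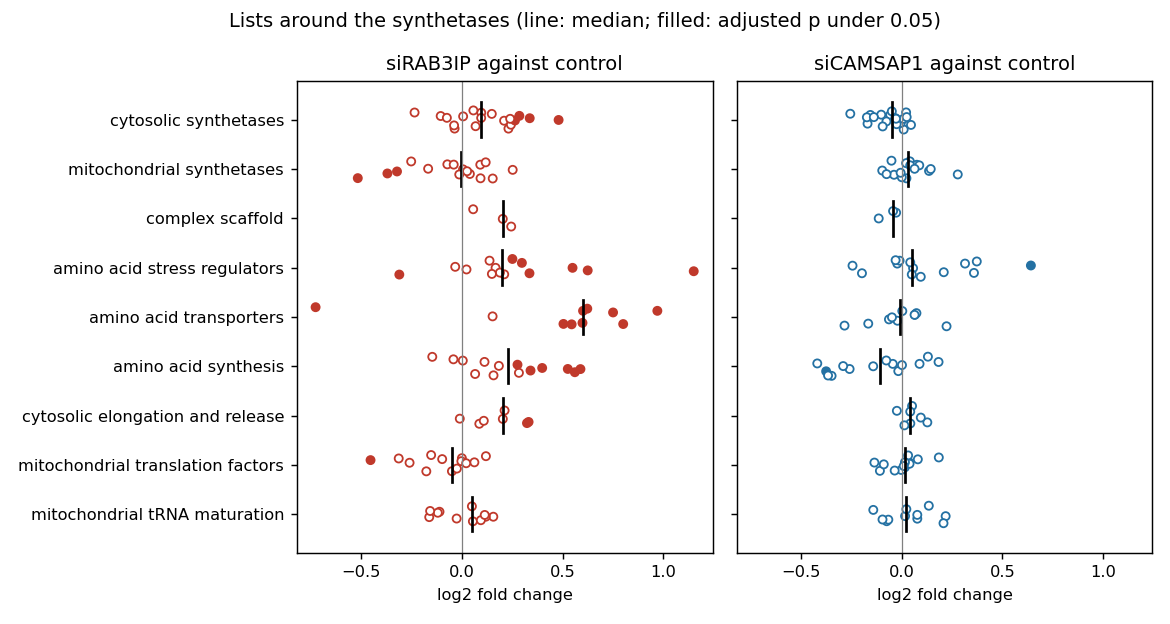
Log2 fold change against control of every tested gene of the synthetase lists and of the lists around them, in siRAB3IP on the left and siCAMSAP1 on the right, with black lines at list medians and filled points past an adjusted p of 0.05. In siRAB3IP the transporters have a median of 0.60 and the mitochondrial synthetases one of -0.00428.

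Markers of cell identity moved in siRAB3IP as well. Of 7 HEK293 markers 3 were called against control, and they went both ways. PAX2 and NEFM did not pass the filter and were not tested. The planned HEK293 marker NEFL was not matched to a gene and is left out. Over all genes 6.58% were called higher and 5.38% lower. The keratins KRT8 (-0.56 ± 0.10) and KRT18 (-0.72 ± 0.09) fell, and the neuronal intermediate filament gene INA rose 2.86-fold, from 1.69 and 1.43 CPM to 4.71 and 4.18. The summed level of the 7, most of it from the keratins, was 1582 to 1677 CPM in control, 1091 to 1358 in siRAB3IP and 1369 to 1376 in siCAMSAP1. Of 3 endothelial markers VWF was called, and their sum was 3.21 to 3.53 CPM in control and 5.24 to 7.83 in siRAB3IP, with PECAM1 and CDH5 under 1 CPM. Of 4 fibroblast markers COL1A1 was called, and their sum was 21.9 to 28.4 CPM in control and 18.1 to 24.5 in siRAB3IP. Their part in the synthetase values was not tested.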

How the data were processed

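The authors' deposited count table holds fragment counts per gene from featureCounts 1.6.0, per the file headers, made on primary alignments with both ends mapped, no chimeric fragments and no strand setting. STAR, DESeq2 and the hg19 build are named in the submitters' processing notes, without versions. The authors' comparison tables hold normalized counts (unit signal), log2 fold changes with standard errors, and p-value columns, deposited for genes past their threshold. Their signal columns matched 1 count column each within 1e-09 in log2 ratio, which gave the groups.

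Tests ran on the counts in edgeR 4.0.16 (R 4.3.3) with TMM library sizes, the default filter and a robust quasi-likelihood fit of all 3 groups together (3 residual degrees of freedom), with Benjamini-Hochberg adjustment at 0.05 over 22331 genes. CPM uses TMM-scaled library sizes, and 3 counts stood for 0.0726 to 0.0803 CPM. FPKM divides CPM by the exon length in the count table. Members and lists were chosen with earlier results of these data known. Named were every synthetase called in a comparison, their partners, HARS1 with HARS2, and up to 4 called genes per other list. Of the genes that this rule names, 1 is not reported here. Symbols were matched by gene identifier for 52181 genes, including all 120 listed.

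Other settings tried were scaling by RLE or upper quartile, no low-count filter, a filter at a mean of 5 CPM, only the groups compared, a replicate block, DESeq2 1.42.0, limma-voom (limma 3.58.1), a minimum fold of 1.2, title grouping, leaving out each library and, added after seeing the data, no robust prior. On simulated counts for siRAB3IP against control (22331 genes, 3 draws of 200 changed genes with over 200 fragments on average), 18.9% of 1.25-fold, 81.6% of 1.5-fold and 97.5% of 2-fold changes were recovered, and 7.93% of calls were false. For siCAMSAP1 the shares were 19.4%, 80.1%, 99.5% and 8.94%. Python 3.11.15 with numpy 2.4.6, pandas 2.3.3 and matplotlib 3.10.9 made tables and figures.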

Additional observations from a re-analysis of the deposited data

How the results depend on the processing

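Title grouping puts a siRAB3IP library of the grouping used here on the opposite side in both siRAB3IP comparisons. It reversed all 16 called gene values, which is no separate check on them. For siRAB3IP against control it gave 0 cytosolic and 0 mitochondrial calls and log2 fold changes of -0.309 (AARS1), -0.346 (GARS1), -0.186 (NARS1), -0.241 (SARS1), 0.117 (IARS2), 0.099 (LARS2) and 0.317 (VARS2), with a cytosolic minus mitochondrial median of -0.136. For siRAB3IP against siCAMSAP1 it gave 0 and 0 calls and values of -0.31 (AARS1), -0.117 (GARS1), -0.0152 (IARS1), -0.166 (NARS1), -0.15 (SARS1), -0.0941 (YARS1), 0.269 (IARS2), 0.226 (LARS2) and 0.176 (VARS2), with a median difference of -0.0414. Outside the title grouping 0 of the gene values reversed, and the median difference ran from 0.0942 to 0.167 in siRAB3IP, from -0.151 to -0.0554 in siCAMSAP1 and from 0.209 to 0.285 between the knockdowns. Against a minimum fold of 1.2 the counts were 0 cytosolic and 1 mitochondrial for siRAB3IP against control, and 1 and 0 between the knockdowns.

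With a replicate block the counts rose to 9 cytosolic and 5 mitochondrial for siRAB3IP against control. They rose to 3 and 1 for siCAMSAP1 against control, and to 13 and 4 between the knockdowns. Calls over all 22331 genes rose as well, in the same order from 2671 to 5590, from 237 to 1643 and from 2076 to 4829. Deviations of same-numbered libraries correlated at 0.45, 0.532 and 0.445 over 11784 genes, so libraries with the same number deviated together. The numbers follow accession order and match those in the authors' column names, but no source used here says that a number marks a shared culture, batch or day. With 2 numbers the pairing therefore rests on the data alone, and the fit without the block was kept. Leaving out 1 library gave 1 to 5 cytosolic and 1 to 3 mitochondrial calls for siRAB3IP against control, 0 to 0 for siCAMSAP1 and 2 to 8 and 1 to 3 between the knockdowns. These fits assume that the lone library of a group varies like the others. Under RLE and upper-quartile scaling 0 called gene values lost the call, although over all genes upper-quartile scaling gave 1296 higher and 1412 lower calls in siRAB3IP. Of 272 gene values over the alternatives 208 kept direction and call, 48 kept direction and lost the call, and 16 reversed. The cause of the losses was not tested. With 2 libraries per group, small changes were mostly missed in simulated counts, so genes that were not called are not shown to be unchanged.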
